A study of Mus musculus with 16 samples.

Results

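A set of 2496 H3K36me3 regions lay far from any H3K4me3 peak in mouse blood stem cells and was held by every H3K36me3 library that defined it. The regions were found by merging the peaks of 5 H3K36me3 libraries into 77590 regions and keeping those touched by all 5 lists, under 10000 bp wide, and with no peak of any of the 4 H3K4me3 lists within 50 kb. All 5 lists held 16247 merged regions. The 2496 regions were 15.4% of these. Another 11533 were also under 10000 bp but had an H3K4me3 peak within 50 kb, and 2218 were 10000 bp or longer. The regions were chosen by measured values, namely H3K36me3 presence, merged width and distance to H3K4me3, so those values are given as a description, without a test. Every region had to be touched in all 5 libraries, so one gained or lost entirely with age could not be in the set, and the tests with age below concern only the length under peaks within it.

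Chromatin immunoprecipitation and sequencing was used on hematopoietic stem cells of C57BL/6 mice at 4 months (young) and 24 months (old), to ask how histone methylation differs with age. The cells were taken from bone marrow and sorted as SP-KSL-CD150+, which combines dye efflux with surface markers, and no other genotype or treatment is given in the labels. The 16 libraries comprised 6 for H3K36me3, 6 for H3K27me3 and 4 for H3K4me3. The 5 H3K36me3 libraries used here were young replicates 5 and 6 and old replicates 4, 5 and 6. The labels describe all libraries as technical replicates of numbered biological replicates and do not say which share animals, so the p-values reflect only sample-to-sample spread, possibly of technical origin.

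H3K36me3 is placed on nucleosomes by enzymes that travel with elongating RNA polymerase II, chiefly SETD2, and builds up over the bodies of transcribed genes and toward their 3′ ends. H3K4me3 sits at active or poised promoters, where transcription begins. H3K27me3 is laid down by Polycomb repressive complex 2 over silenced genes and is seldom found on the same nucleosomes as H3K36me3. A stretch of H3K36me3 with no H3K4me3 peak nearby can be the distal part of a long gene, among other settings, and these lists do not tell which.

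The lists differed widely in size, and depth is unknown. The 5 H3K36me3 lists held 39362 to 84437 peaks. The list of young replicate 5 had the most peaks and the narrowest, with a median of 354 bp, against 1041 to 1437 bp in the other 4. Young replicate 4, left out of the choice, held only 6399 peaks over 5.90 Mb. Young H3K27me3 replicate 1 was not unusual in size, with 46988 islands over 168.9 Mb. The other H3K27me3 lists held 17752 to 47197 islands over 123.0 to 178.9 Mb. It stood apart in where its islands lay, touching 6.37% of the 2496 regions against 0.0401 to 0.761% in the others. That share is itself compared below, with and without this library. Both young libraries carry the number 16 in their titles, which the labels do not explain, as does old H3K36me3 replicate 4.

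The far regions were a few kilobases wide. Their width ran from 975 to 9941 bp with a median of 3679.5 bp, and the middle of the distribution, from the lower to the upper quartile, spanned 2674.75 to 5272.25 bp. Regions of the same kind with H3K4me3 within 50 kb had a median of 4285 bp. In all, the far regions spanned 10.4 Mb. The distance to the nearest H3K4me3 peak had a median of 78047 bp and reached 489635 bp. Most were not far beyond the limit: 1164 regions (46.6%) lay 50 to 75 kb away, 562 (22.5%) 75 to 100 kb, 633 (25.4%) 100 to 200 kb and 137 (5.49%) over 200 kb.

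**Figure D1:**
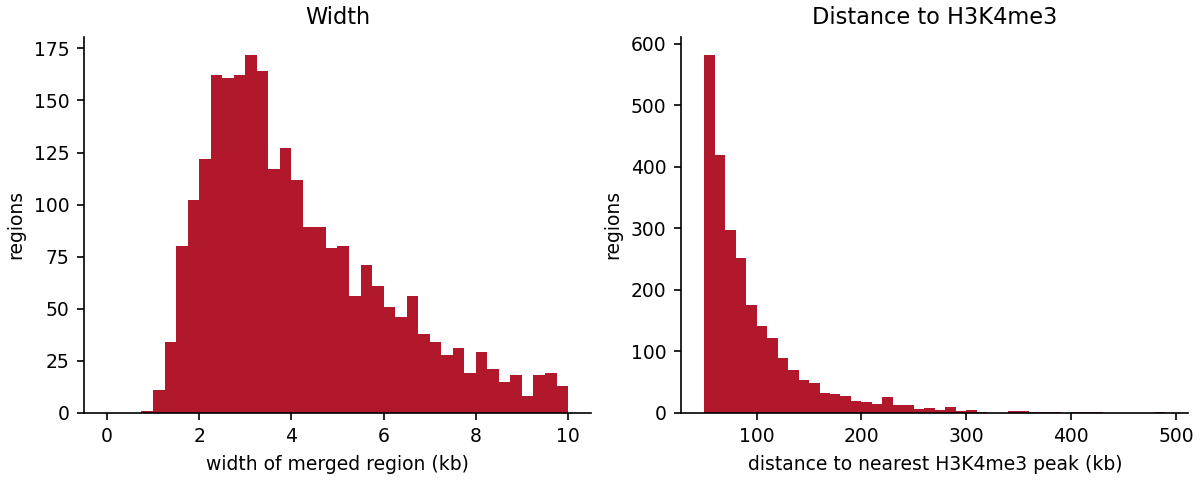
Histograms of the 2496 far regions by width in kb (left) and by distance to the nearest H3K4me3 peak in kb (right), with the number of regions on the vertical axes. Widths centre on a median of 3679.5 bp, and distances fall off from the limit of 50 kb to 489635 bp.

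Width was much the same at every distance. The median was 3717.5 bp at 50 to 75 kb, 3578 bp at 75 to 100 kb, 3598 bp at 100 to 200 kb and 3767 bp beyond 200 kb. The mean length under peaks over the 5 libraries, taken per region, had medians of 2125.1, 2096, 2113.2 and 1985.4 bp in the same order. Remote regions were thus nearly the same size as those next to the limit.

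The limits cut through a continuous range. The widest included regions were chr12:79575766-79585706, of 9941 bp, and chr5:130809757-130819685, of 9929 bp. Just above the limit, chr9:104101296-104111302 was 10007 bp wide and chr2:105676638-105686649 was 10012 bp wide. By distance, chr3:9445221-9449124 at 50003 bp and chr5:38495659-38499506 at 50004 bp were the nearest included. The nearest ones left out were chr17:47379109-47382664 at 49965 bp and chr9:26889345-26892572 at 49958 bp.

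The H3K4me3 regions that bounded the set were mostly present at both ages. For 1887 far regions (75.6%) the nearest H3K4me3 region was held by all 4 H3K4me3 lists, and for 366 (14.7%) by a single list. Among regions with H3K4me3 within 50 kb these shares were 84.3% and 10.1%. With the 2 young H3K4me3 lists alone 2780 regions would have been kept, and with the 2 old lists alone 2540.

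Every autosome held far regions. The number per autosome ran from 53 on chromosome 19 to 226 on chromosome 1. Taken as a share of all regions under 10000 bp held by the 5 lists, the far regions were 13.0% on chromosome 19, 13.5% on chromosome 11 and 13.6% on chromosome 9, the lowest values. The highest autosomal shares were 24.3% on chromosome 15, 23.6% on chromosome 13, 23.4% on chromosome 1 and 23.0% on chromosome 12. Chromosome X held few regions of either kind, 18 far and 49 near H3K4me3, and chromosome Y held 2 far and 0 near.

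Many far regions lay within reach of another. Joined where they were less than 50 kb apart, they formed 1074 runs. Of these runs, 523 were a single region and 125 held 5 or more, and the latter together took in 840 regions (33.7%). Runs of 2 to 4 held 1133 regions (45.4%). The median gap to the nearest region held by all 5 lists, of any kind, was 5277 bp, against 3433 bp for regions near H3K4me3. No such region lay within 50 kb of 246 far regions (9.86%) and of 9.18% of those near H3K4me3.

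A minority of far regions belonged to a chain of H3K36me3 regions that also held a region within 50 kb of H3K4me3. When regions held by all 5 lists were chained across gaps under 10 kb, 895 far regions (35.9%) were alone in their chain, against 29.6% of regions near H3K4me3. For 526 (21.1%) the chain reached a region with H3K4me3 within 50 kb, and for 36 (1.44%) one within 5 kb of H3K4me3. A region of 10000 bp or longer stood in the chain of 415 (16.6%). Taken over regions, so that a chain counted once for each region in it, the median chain span was 13.5 kb for far regions. For regions near H3K4me3 it was 15.7 kb.

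The run with most regions lay on chromosome 15. It held 17 regions in 276 kb, from 33103947 to 33379911, and its regions took up 24.9% of that span. The 17 regions were covered over 16114 bp in young replicate 5 and 52106 bp in young replicate 6. Old replicates 4, 5 and 6 covered 52589, 49922 and 25886 bp. Young replicate 5 and old replicate 6, which share the title number 18, were the low pair, so the ages overlapped. The distance to H3K4me3 was 90008 bp at the first region and reached 292387 bp inside the run. No H3K4me3 peak and no island of the 5 H3K27me3 lists lay in the run or within 20 kb of it.

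**Figure D2:**
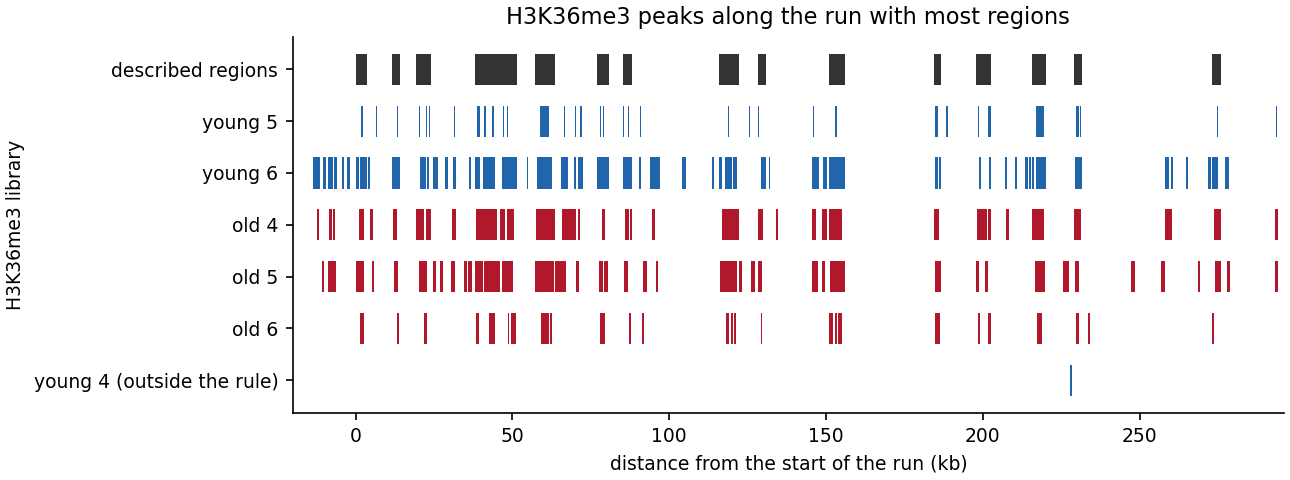
Peaks of each H3K36me3 library along the run of 17 far regions on chromosome 15, drawn to scale in kb from the start of the run, with young libraries in blue, old libraries in red and the described regions in black. Young replicate 5 and old replicate 6 show the shortest peaks, and young replicate 4 has no peak over any of the 17 regions.

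Within that run the regions differed in strength. The region chr15:33161267-33167513, of 6247 bp, was covered over 2872 and 4745 bp in young replicates 5 and 6 and over 6077, 5971 and 3226 bp in old replicates 4 to 6. All 5 lists shared 2469 bp of it. The widest of the run, chr15:33141867-33149884, was covered over 2399 and 5602 bp in the young and 6664, 7639 and 2848 bp in the old libraries. An island of young H3K27me3 replicate 1, the list that stood apart, lay over part of it. At the far end, chr15:33376885-33379911 had 283 and 2199 bp in the young and 2339, 1644 and 712 bp in the old libraries, and no base of it lay under peaks of all 5 lists.

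The next runs lay on chromosomes 11 and 14. That on chromosome 11, from 34130311 to 34445262, held 15 regions, which were covered over 21356 and 52365 bp in young replicates 5 and 6 and 43063, 54174 and 51125 bp in old replicates 4 to 6. That on chromosome 14, from 33774393 to 33940342, held 14 regions that took up 48.8% of 166 kb. Its regions were covered over 24546 and 69232 bp in the young and 43225, 59197 and 60869 bp in the old libraries. In both, young replicate 5 was lowest. The old libraries lay between the 2 young ones in the chromosome 14 run, while in the chromosome 11 run old replicate 5 lay above both.

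How much of a far region lay under peaks depended on the library. Young replicate 5 covered 26.4% of their summed width and young replicate 6 covered 80.2%. Old replicates 4, 5 and 6 covered 61.4%, 70.8% and 60.5%. The median length per region was 853.5 and 2898 bp in the young and 2143, 2545.5 and 2101 bp in the old libraries. The young libraries were therefore the lowest and the highest of the 5, with the old ones between them.

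Peaks were also more broken up in young replicate 5. It had 2.28 peaks per far region, with a single peak in 37.6% of them. Young replicate 6 had 1.62 peaks per region, and old replicates 4, 5 and 6 had 1.36, 1.44 and 1.75. Young replicate 5 covered the least of the 5 in 2253 far regions (90.3%), and young replicate 6 the most in 1214 (48.6%).

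**Figure D3:**
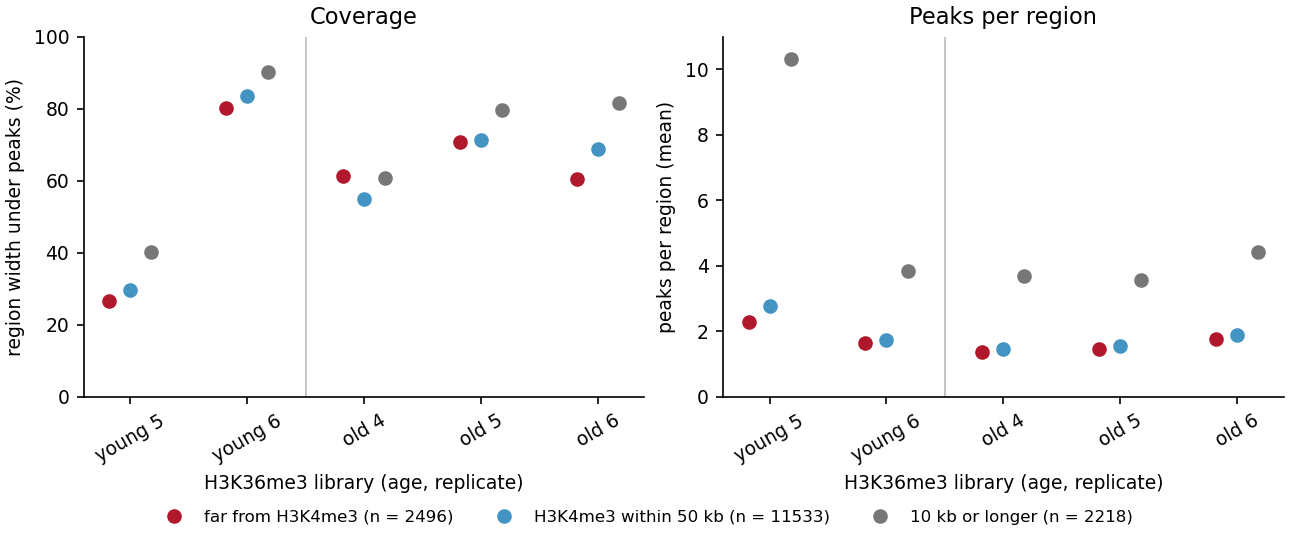
Share of the summed region width under peaks in percent (left) and mean number of peaks per region (right) for each H3K36me3 library, for far regions, regions with H3K4me3 within 50 kb and regions of 10 kb or longer. Far regions range from 26.4% in young replicate 5 to 80.2% in young replicate 6, with the 3 old libraries between.

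Presence in all 5 lists did not always mean a shared core. The length common to all 5 libraries had a median of 458.5 bp per far region, and summed over the set it was 16.2% of the width. In 505 far regions (20.2%) no base pair was under peaks of all 5. Regions near H3K4me3 had a median of 536 bp and 18.5% with no common base, and those of 10000 bp or longer 3186.5 bp and 1.49%. The library with the most coverage exceeded the one with the least by a median of 3.75 times within a far region, and by under 1.5 times in only 33 regions. Across the 2496 regions the Spearman correlation of covered length between libraries was 0.55 to 0.75. Covered length is bounded by the merged width, which the peaks of these same libraries set. The regions also share libraries and peak callers, so this is a description.

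The 10 far regions with the largest mean length under peaks were among the widest. The highest mean belonged to chr15:90794608-90803888, 75218 bp from H3K4me3, with 6089 and 9281 bp covered in young replicates 5 and 6 and 8540, 8629 and 8456 bp in old replicates 4 to 6. It was 1 unbroken peak in 4 libraries and 9 peaks in young replicate 5. Close behind, chr16:18958960-18968255, 80376 bp away, had 6395 and 9296 bp in the young and 8379, 9039 and 7845 bp in the old libraries, and all 5 shared 6374 bp. In chr4:111494943-111504513 the lengths were 4616 and 8613 bp in the young and 9089, 9571 and 8862 bp in the old libraries. There the old libraries all lay above both young ones.

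The other 7 of the 10 with most coverage were of like size. The region chr9:7038533-7048129, 128025 bp from H3K4me3, had 3369 and 7711 bp in the young and 8915, 8826 and 8745 bp in the old libraries, again without overlap. The region chr1:181369908-181379702 had 5764 and 9653 bp against 6308, 7342 and 8089 bp. In chr16:13592648-13601689 the values were 4267 and 8296 bp in the young and 7045, 8591 and 8478 bp in the old libraries. In these last 2 the ages overlapped. The remaining 4 were chr8:120091709-120101529, chr6:90999131-91008526, chr13:114698428-114708342 and chr3:133033453-133043145, with means over the 5 libraries of 7165, 7126, 6993 and 6976 bp. Young replicate 5 was lowest in all 10.

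A peak's rank within its own list gave a second view of strength, limited because many peaks share a score of 3100. The highest-scoring peak of a far region stood at a median percentile of 71.5 and 80.9 in the lists of young replicates 5 and 6 and of 74.4, 75.3 and 72.7 in those of old replicates 4, 5 and 6. Regions near H3K4me3 stood at 67.4 to 83.8 and regions of 10000 bp or longer at 90.7 to 96.9. A region with more peaks has more chances of a high one, so these ranks are set between region kinds only as a description.

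The 5 far regions of the highest mean score percentile were at 99.2 to 99.4, and their order is not meaningful, since chr11:34434284-34441265 and chr16:18958960-18968255 had the shared score of 3100 in all 5 lists and the others had it in 2 lists each. The region chr12:78430626-78440345 had 4418 and 8701 bp in the young and 8803, 7613 and 5157 bp in the old libraries. The region chr19:16734262-16741583 had 3767 and 7027 bp in the young and 5300, 6520 and 5320 bp in the old libraries. It lay 105957 bp from H3K4me3 and all 5 libraries shared 3767 bp. The region chr11:34434284-34441265, inside the run on chromosome 11, had 4141 and 6006 bp in the young and 6484, 6820 and 6127 bp in the old libraries, which did not overlap. The others were chr16:18958960-18968255, described above, and chr15:10495577-10502684, with 4613 and 5770 bp in the young and 4856, 6613 and 5797 bp in the old libraries.

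The 5 regions most remote from H3K4me3 ranged from weak to strong. The farthest, chr1:62257582-62259315, lay 489635 bp from the nearest H3K4me3 peak. It was covered over 531 and 833 bp in young replicates 5 and 6 and 1188, 1437 and 1103 bp in old replicates 4 to 6, with no base common to all 5 and a mean percentile of 42.8. Next, chr1:181014245-181016876 at 429597 bp had 1055 and 2459 bp in the young and 1798, 2324 and 1602 bp in the old libraries. Its mean percentile was 80.4.

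Near it, chr1:181021533-181023979 at 422494 bp had 342 and 1593 bp in the young and 994, 1768 and 2221 bp in the old libraries. In chr1:180878713-180881302, at 417519 bp, old replicate 4 covered the whole 2590 bp while the other 4 libraries covered 465 to 753 bp. The fifth, chr13:20694911-20699386 at 414789 bp, was the strongest of these, with a mean percentile of 88.4 and 1282 and 4433 bp in the young and 3156, 3533 and 3661 bp in the old libraries. Of the 5, only the farthest had ages that did not overlap.

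Compared with regions near H3K4me3, the far regions were covered somewhat less in 4 libraries and more in 1. The share of width under peaks was 26.4% in far regions against 29.6% near H3K4me3 in young replicate 5, and 80.2% against 83.5% in young replicate 6. It was 70.8% against 71.3% in old replicate 5 and 60.5% against 68.9% in old replicate 6. In old replicate 4 it was higher in far regions, 61.4% against 54.9%. The score percentiles followed the same order, with medians of 74.4 in far regions and 67.4 near H3K4me3 in old replicate 4, and lower medians in far regions in the other 4 libraries. Because these lists chose the regions, no test is given. Old replicate 4 has the title number 16, as do young H3K36me3 replicate 4 and young H3K27me3 replicate 1. Those libraries, outside the choice, also touched far regions more often than regions near H3K4me3. The shares were 8.85% against 7.88% in the H3K36me3 library and 6.37% against 2.77% in the H3K27me3 library. In the H3K36me3 library the exact 95% intervals, 7.77 to 10.04% and 7.40 to 8.39%, overlapped. The part of the title number was not tested.

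Across the 5 libraries, the difference in total length with age was smaller than the spread between the young libraries. Young libraries covered 2.74 and 8.31 Mb of them, a mean of 5.53 ± 3.94 Mb (SD, n = 2). Old libraries covered 6.36, 7.34 and 6.27 Mb, a mean of 6.66 ± 0.592 Mb (SD, n = 3). All old values lay between the 2 young ones. The log2 difference, old minus young, was 0.48, with a two-sided exact permutation p of 0.7, in a design of 2 against 3 libraries that cannot go below 0.1. Without young replicate 5, whose peaks were the narrowest, it was -0.32, and without young replicate 6 it was 1.28. With young replicate 4 added it was 1.99. The part of peak width in this result was not tested.

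Title number 18 is the only one that both ages share here, and in it the log2 ratio of old replicate 6 to young replicate 5 was 1.19. Old replicate 6 was the longer of the pair in 2392 far regions (95.8%). These are 1 library of each age. As a share of the whole list, far regions took up 6.59% and 6.03% of the covered length in the young and 9.28%, 7.33% and 6.24% in the old libraries, with a two-sided exact permutation p of 0.4.

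No far region passed the test for a difference with age, which does not show that lengths were alike. On simulated data with the per-region spread of these libraries and noise drawn separately for each region, limma did not recover known changes of the sizes tried. Among the 45120 regions tested, limma called 0 (0%) with the adjusted threshold of 0.05, and thus none of the 2496, all of which entered the fit. The smallest adjusted p was 0.378 over all regions and 1.00 over the far ones. At an unadjusted p under 0.05 there were 10 far regions, all with more length in old libraries (0.401%), against 0.414% of all tested regions with more and 1.63% with less. The median log2 change was 0.42 over the far regions, 0.34 over regions near H3K4me3, 0.29 over those of 10000 bp or longer and 0.06 over all tested, which include regions that some libraries lack, with a median SE of 0.89 for a single far region. Without young replicate 5 the median over the far regions turned to -0.31. With each library centred on its median over the regions held by all 5, it was 0.05.

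Counts of regions whose ages did not overlap leaned to longer lengths in old libraries. All 3 old libraries exceeded both young ones in 225 far regions (9.01%), against 4.05% of all tested regions and 5.85% of those held by all 5 lists. The opposite held in 2 far regions (0.0801%), against 5.12% of all tested and 0.0677% of those held by all 5. These counts depended most on the young libraries, that of longer regions on replicate 6 and that of shorter ones on replicate 5. Without young replicate 6 they were 2259 (90.5%) and 3 (0.12%), against 86.2% and 0.08% of regions held by all 5. Without young replicate 5 they were 227 (9.09%) and 1212 (48.6%), against 5.91% and 54.9%. Without old replicate 4 they were 385 (15.4%) and 8, without old replicate 5 they were 268 (10.7%) and 15, and without old replicate 6 they were 453 (18.1%) and 10. The shares longer in old among all regions held by the 5 lists were 13.1%, 7.32% and 10.8% in the same order. With every library scaled to the same covered length of the regions held by all 5, they were 326 (13.1%) and 124 (4.97%), against 10.9% and 5.49% of all regions held by the 5 lists.

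Among the 225, the largest differences were in regions with little young coverage. The region chr4:55062782-55066952 had 328 and 727 bp in young replicates 5 and 6 and 3138, 3078 and 1879 bp in old replicates 4 to 6. Its log2 change was 2.02 with an SE of 1.04 and an adjusted p of 1.00 by limma. In chr12:102891243-102897667 the lengths were 341 and 1796 bp in the young and 5933, 4312 and 2148 bp in the old libraries, a log2 change of 1.95. An H3K27me3 island of young replicate 3 covered 5000 bp of that region. No other H3K27me3 library had an island over it.

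The next 3 by size of the difference followed. The region chr2:70578699-70581042 had 305 and 330 bp in the young and 2044, 1554 and 1560 bp in the old libraries, a log2 change of 1.88. In chr6:137801821-137806850 the values were 343 and 661 bp against 1839, 4136 and 1480 bp, a log2 change of 1.85. In chr4:123174053-123180781 they were 735 and 1441 bp against 5640, 3803 and 3369 bp, a log2 change of 1.82. None of these passed the adjusted test.

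Only 2 far regions were shorter in every old library, and both by little. The region chr4:62792649-62794658 had 1469 and 1488 bp in young replicates 5 and 6 and 981, 1122 and 1241 bp in old replicates 4 to 6, a log2 change of -0.36 with an SE of 1.12. Among the H3K27me3 libraries, old replicate 3 alone had an island over it, covering 1152 bp. In chr13:20353242-20356118 the values were 2003 and 2267 bp in the young and 1911, 1927 and 1970 bp in the old libraries, a log2 change of -0.13. In the second, young replicate 5 lay only just above the old libraries.

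**Figure D4:**
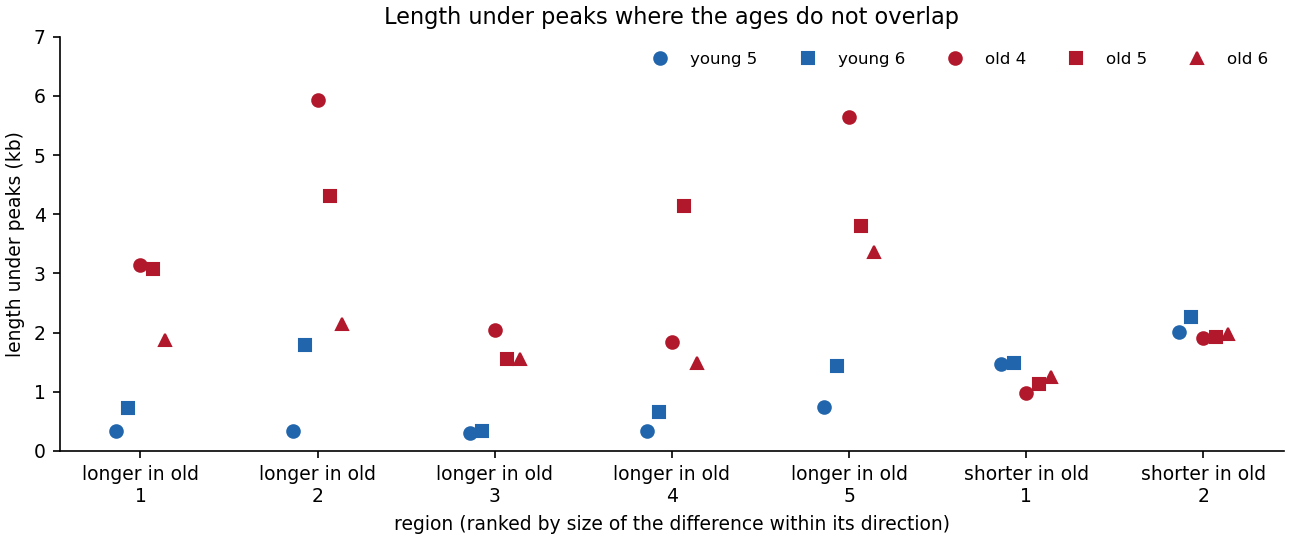
Length under H3K36me3 peaks in kb in each library for the 5 far regions with the largest differences toward old and the 2 toward young, among those whose ages do not overlap; blue marks young and red marks old libraries. All old points stand above the young ones in the first 5 regions, by the least in the second (2148 against 1796 bp), and below them in the last 2, and no region passed the adjusted test.

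H3K27me3, which the choice of regions did not use, was nearly absent from the far regions in the 5 libraries other than young replicate 1. That library touched 159 of them (6.37%). Of the 2496, 2457 were touched by no island when young replicate 1 was set aside, 34 by 1 library, 3 by 2 libraries and 2 by 3 libraries. Young replicates 2 and 3 touched 1 and 19 regions, or 0.0401% and 0.761%. Old replicates 1, 2 and 3 touched 7, 3 and 16 regions, or 0.280%, 0.120% and 0.641%. The ages overlapped fully, with means of 0.401 ± 0.51% (SD, n = 2) and 0.347 ± 0.267% (SD, n = 3) and a two-sided exact permutation p of 0.8. The pair with title number 18 had 0.0401% (young) and 0.120% (old), and the pair with title number 20 had 0.761% (young) and 0.641% (old).

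The far regions were touched by H3K27me3 less than regions near H3K4me3 in each of these 5 libraries when 1 bp of overlap counted. The mean share was 0.369 ± 0.319% in far regions and 0.687 ± 0.146% in those near H3K4me3 (SD, n = 5). The difference was -0.32 percentage points, lower in 5 of 5 libraries, with a two-sided exact permutation p of 0.062 from sign flips within libraries, the smallest that 5 allow. Against regions of 10000 bp or longer, with 1.76 ± 0.474%, the difference was -1.39 points, with the same exact permutation p of 0.062. With young replicate 1 included, the far regions were touched 0.33 points more than those near H3K4me3, with an exact permutation p of 1.0. That library stood apart in this same share, so the lower share in far regions depends on leaving it out. Counting only islands over at least 50% of a region, the difference was -0.058 points, with an exact permutation p of 0.25, and in young replicate 3 far regions were the higher, 0.321% against 0.225%. Any of the 5 libraries touched 1.56% of far regions and 1.78% of those near H3K4me3. The same regions were counted in every library. They were split by distance to H3K4me3, and how often H3K27me3 islands lie near H3K4me3 peaks was not tested.

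Regions near H3K4me3 and long regions were wider, so the rate was also taken per Mb. The mean difference from regions near H3K4me3 was then -0.58 per Mb, with an exact permutation p of 0.125. Far regions were touched 0.0965 times and those near H3K4me3 1.13 times in young replicate 2. In old replicate 3 both rates were 1.54, and far regions were the lower in the other 4 libraries. Against regions of 10000 bp or longer, far regions had more touched regions per Mb in young replicate 3, 1.83 against 1.56, and in old replicate 3, 1.54 against 1.14. They had fewer in young replicate 2, 0.0965 against 0.93, in old replicate 1, 0.676 against 1.41, and in old replicate 2, 0.29 against 0.81.

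H3K27me3 islands were also farther off. The median distance from a far region to the nearest island was 103214 to 169744 bp in the 5 libraries, and 58403 to 98922 bp from a region near H3K4me3. An island lay within 50 kb of 10.4% and 19.6% of far regions in young replicates 2 and 3 and of 19.1%, 11.3% and 20.9% in old replicates 1, 2 and 3. For regions near H3K4me3 these shares were 28.5%, 40.7%, 39.5%, 30.3% and 43.9% in the same order. The far regions thus had fewer islands nearby in every one of these 5 lists. Young replicate 1, set aside, had an island within 50 kb of 36.2% of far regions and 22.9% of those near H3K4me3. This distance was not tested.

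**Figure D5:**
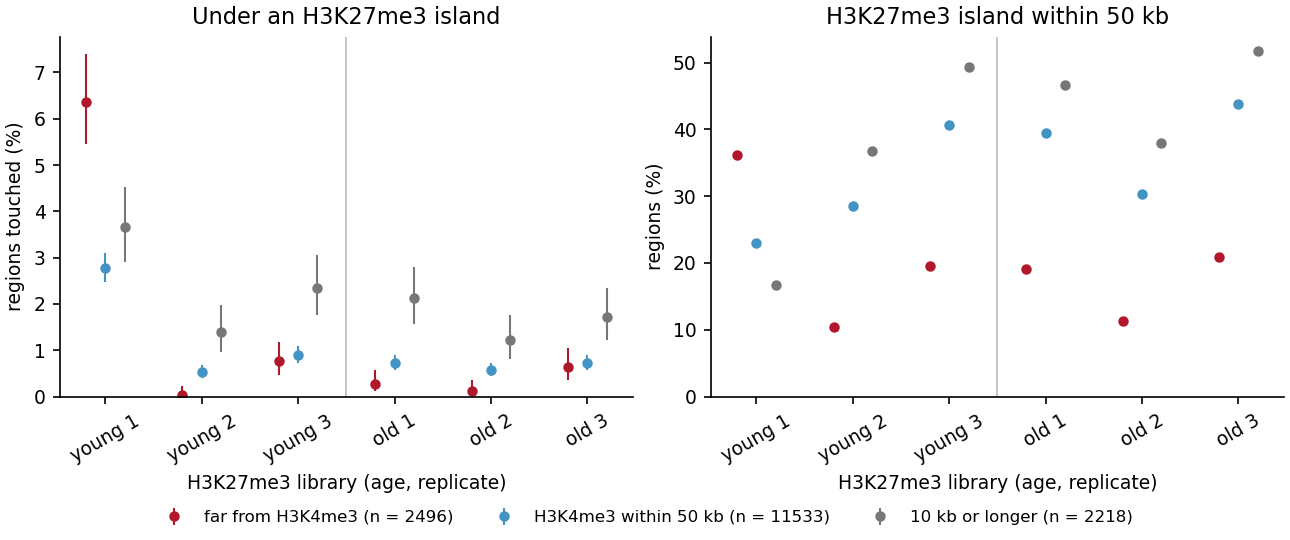
Percent of regions touched by an H3K27me3 island (left, with exact 95% binomial intervals) and percent with an island within 50 kb (right), by H3K27me3 library, for far regions, regions with H3K4me3 within 50 kb and regions of 10 kb or longer. Far regions are lowest in the 5 libraries other than young replicate 1, and in young replicate 1 they are the highest, with 6.37% touched.

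The 2 far regions touched by 3 H3K27me3 libraries had strong H3K36me3. In chr4:145726361-145735888, 132035 bp from H3K4me3, islands covered 5128 bp in young replicate 3, 6400 bp in old replicate 1 and 2000 bp in old replicate 3. H3K36me3 covered 2945 and 9219 bp of it in young replicates 5 and 6 and 4731, 9275 and 4103 bp in old replicates 4 to 6. In chr2:157634813-157640632, islands covered 1400, 3400 and 2200 bp in old replicates 1, 2 and 3 and 0 bp in young replicates 2 and 3. H3K36me3 there covered 2259 and 5440 bp in the young and 4330, 4518 and 4100 bp in the old libraries.

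Young H3K36me3 replicate 4, outside the choice, gave a look at the same mark in another list. Its peaks touched 221 far regions, or 8.85% (exact 95% interval 7.77 to 10.04%, which treats regions as independent). It touched 7.88% (7.40 to 8.39%) of regions near H3K4me3 and 19.5% (17.8 to 21.2%) of those of 10000 bp or longer. Merged regions not held by all 5 lists were touched in 1.69% of cases. Per Mb of region it touched 21.3 far regions, 16.9 near H3K4me3, 13.0 of 10000 bp or longer and 12.8 of the merged regions not held by all 5. Its peaks covered at least 50% of 0.28% of far regions and 0.173% of those near H3K4me3. The shares were 0.766% of those of 10000 bp or longer and 0.367% of those not held by all 5. The far regions it touched had a median mean length of 2792.4 bp in the other 5 libraries, against 2065 bp for those it did not touch, and a median mean percentile of 84.0 against 68.9. By distance to H3K4me3 the share touched was 9.19% at 50 to 75 kb, 8.19% at 75 to 100 kb, 9.16% at 100 to 200 kb and 7.30% beyond 200 kb. Being 1 library, it allows no test between samples.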

How the data were processed

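The deposited files were peak lists on mm9, 1 per library, made by the authors with CASAVA 1.4, SICER and MACS, per the submitters' processing notes. Read depth, peak-calling thresholds, the aligner and caller versions were not given in the sources used here. Every peak in the deposited lists has a score of unstated unit. The scores ran from 80.0 to 3233.06 in the H3K4me3 and H3K36me3 lists and were used to rank peaks within a list.

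Peaks of the 5 H3K36me3 libraries were merged where they overlapped or abutted. H3K27me3 islands lay on a grid of 200 bp and their end was counted as included. A library held, or touched, a region if 1 bp or more was under a peak. The length under peaks, as log2(bp + 200), was fitted with limma 3.58.1 in R 4.3.3, with a trend and empirical Bayes moderation, over all regions held by at least 2 libraries, and p-values were adjusted by Benjamini-Hochberg with a threshold of 0.05. The fit was tested on simulated data. It recovered known changes where the spread between libraries was small but not at the per-region spread of these libraries. The simulated noise was drawn separately for each region and library, so a shift shared by all regions of a library was not imitated. No conclusion on stability is drawn from an absence of calls. Totals and shares were compared with exact permutation tests in Python 3.11.15 (scipy 1.17.1, numpy 2.4.6, pandas 2.3.3).

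The 2 young libraries that stood apart, H3K36me3 replicate 4 and H3K27me3 replicate 1, were left out of the tests and are described on their own. Regions were named by rule: the 10 of the largest mean covered length, the 5 farthest from H3K4me3, up to 5 in each direction whose ages did not overlap, those with H3K27me3 in at least 3 libraries, the 3 runs with most regions, the 5 of the highest mean score percentile and those nearest each limit. The regions, rules and tests were chosen with earlier results of these data known. The annotation at hand is on another build, so no region was assigned to a gene, no sequence is printed and the labelled cell type was not checked against marker genes.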

Additional observations from a re-analysis of the deposited data

Results flagged for a closer look

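Peaks of young H3K36me3 replicate 4, a library outside the choice of regions, touched 221 far regions (8.85%), beside 7.88% of regions near H3K4me3 and 19.5% of those of 10000 bp or longer. This was singled out because the signal lies in a list the comparisons do not use.

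Islands of young H3K27me3 replicate 1, left out of the tests, touched 159 far regions (6.37%), against the 0.0401 to 0.761% of the other 5 H3K27me3 libraries. It touched only 2.77% of regions near H3K4me3 and 3.65% of those of 10000 bp or longer, so far regions had the highest share here and the lowest in the other 5 libraries. It had an island within 50 kb of 36.2% of far regions and of 22.9% of those near H3K4me3. Both libraries touched 62 far regions, which is 28.1% of those touched by the H3K36me3 library and 39.0% of those touched by the H3K27me3 library. Both have the title number 16, as does old H3K36me3 replicate 4, and its part in this was not tested.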

How the results depend on the processing

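The set rests on its limits. It held 5482 regions at a distance of 25 kb and 770 at 100 kb, 1616 with peaks merged over gaps up to 1000 bp, 1213 with only H3K36me3 peaks at or above the median score of their list, 141 where each library had to cover at least 50% of the region, and 209 with young replicate 4 added, a setting chosen after seeing the data. Leaving out 1 H3K36me3 library gave 2787 to 3136. Covered length had no call in any of the 12 alternative fits, with the smallest adjusted p, 0.052 by limma, without young replicate 6. The median log2 change of the far regions was 1.45 with young replicate 4 and -0.31 to 1.14 when 1 library was left out, and the log2 difference of total length was -0.32 to 1.28, both negative only without young replicate 5. Counts of far regions longer in every old library were 227 to 2259, and of those shorter 3 to 1212, when 1 library was left out, where 5.91 to 86.2% of all regions held by the 5 lists were longer and 0.08 to 54.9% shorter. The count of shorter ones was 0 with young replicate 4, 30 with peaks at or above the median score and 124 after scaling. All settings for these counts were chosen after seeing the data. The labels give the same replicate numbers to both ages without saying that a number marks a shared animal. With the replicate block, limma called 0 regions, the log2 difference of total length over replicates 5 and 6 was 0.51, and the H3K27me3 share over replicates 2 and 3 differed by -0.02 points. That share, old minus young, was -0.41 to 0.31 points when 1 library was left out, -2.04 with young replicate 1, 0.0267 with islands at or above the median score and 0.0801 within title number 18. With young replicate 1 the far regions were touched 0.33 points more than those near H3K4me3, with an exact permutation p of 1.0. When 1 library was left out of that comparison the difference stayed between -0.38 and -0.28 points. With young replicate 4 the log2 changes of chr4:62792649-62794658 and chr13:20353242-20356118 were 0.67 and 1.05, and with peaks at or above the median score the second was 0.55. The cause of these reversals was not tested. Read depth is unknown, so regions missed for want of reads cannot be counted.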
